A study of Homo sapiens with 6 samples.

Results

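H3K9me2, the dimethylated form of lysine 9 on histone H3, was mapped by ChIP-seq in HCT116 cells with and without depletion of the histone demethylases KDM3A and KDM3B. In ChIP-seq, DNA bound by the protein or mark that an antibody recognises is recovered and sequenced, and places where reads exceed those of input DNA are listed as regions. All H3K9me2 regions in the deposited lists were taken, 100500 of the 126184 regions in the series. They comprise 11645 regions from control cells (Con) and 88855 from depleted cells (KD). HCT116 is an established human colorectal cancer cell line. Con cells carried a scramble shRNA and KD cells carried 1 shRNA directed at both KDM3A and KDM3B, a treatment that the labels of the samples call siRNA. No time point or dose entered the comparison. The series held 6 libraries, and each antibody was used once in each cell population, so 1 H3K9me2 library stands on each side and no test between Con and KD was possible. A list of regions holds no expression values, so neither the cell line nor the degree of depletion could be checked from it.

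H3K9me2 is a mark of transcriptionally silent chromatin and can form broad domains over genes that a cell does not use. It is written mainly by the methyltransferases G9a and GLP, encoded by EHMT2 and EHMT1, and is bound by reader proteins that help to keep chromatin closed. KDM3A, KDM3B and their paralogue JMJD1C belong to the Jumonji family of demethylases, and KDM3A and KDM3B remove methyl groups from H3K9me2 and H3K9me1. The comparison addresses where H3K9me2 is found in the genome once both enzymes are depleted.

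The sequence of 3 regions at the top of the lists is shown here by 200 bp of the hg19 plus strand at the centre, with CpG dinucleotides in capitals. These are the KD regions with the highest score among those that overlapped a Con region and among those that did not, and the Con region with the highest score among those that overlapped a KD region. The score is a whole number that the authors gave to each region, and its meaning is not given in the sources used here. It was used to order the regions of a list. Where scores of Con and KD are set side by side, they describe the lists and do not measure the strength of the mark.
KD region overlapping Con, FTCD intron 3, chr21:47572701-47572900: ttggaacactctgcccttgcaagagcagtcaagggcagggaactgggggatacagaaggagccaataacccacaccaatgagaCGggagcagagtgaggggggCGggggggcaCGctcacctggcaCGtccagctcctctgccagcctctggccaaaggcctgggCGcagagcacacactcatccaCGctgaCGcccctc
KD region not overlapping Con, CDH15 intron 1, chr16:89241401-89241600: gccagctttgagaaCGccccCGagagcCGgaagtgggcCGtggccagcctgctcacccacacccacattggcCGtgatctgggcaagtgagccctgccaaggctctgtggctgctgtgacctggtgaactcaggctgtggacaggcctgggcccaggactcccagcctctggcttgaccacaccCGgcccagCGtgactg
Con region overlapping KD, intergenic, chr6:58776401-58776600: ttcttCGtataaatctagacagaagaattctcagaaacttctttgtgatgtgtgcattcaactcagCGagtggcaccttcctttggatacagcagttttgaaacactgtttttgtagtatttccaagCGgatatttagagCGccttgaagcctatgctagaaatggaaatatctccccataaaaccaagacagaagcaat
The 200 bp held 63.5% G and C bases at FTCD, which encodes an enzyme of histidine breakdown, and 66.5% at CDH15, which encodes a muscle cadherin. The intergenic Con sequence on chromosome 6 held 39.0% and is not typical of its list. Its score per window was 94.2 against a Con median of 12, and 47 of the 4119 Con regions that overlapped a KD region were under 45% GC. The KD region in FTCD (47569501 to 47576100, score 1500) overlapped a Con region of 200 bp with a score of 23, whereas no Con region was listed over the KD region in CDH15 (89238201 to 89244800, score 1837), where the nearest Con centre lay 13250 bp away. The Con region on chromosome 6 (58776301 to 58776700, score 377) was listed in KD as 700 bp with a score of 985. The nearest protein-coding gene, PRIM2, was 1263124 bp from the centre of this Con region.

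KD cells had 7.63 times as many H3K9me2 regions as Con cells, and these covered 16.4 times as many bases. The Con regions covered 1.69 Mb, or 0.0590% of the assembled genome, and the KD regions 27.6 Mb, or 0.967%. Both lists lie on a grid of 100-bp windows. Regions of 1 window made up 72.9% of the Con list (Wilson 95% confidence interval 72.1 to 73.7%) and 41.3% of the KD list (41.0 to 41.6%). By the methods of the study a peak needs adjacent windows that are equally significant, whereas a region of 1 window has none, so the deposited lists may not be the final set of peaks. Every count of regions below refers to the lists as deposited. The Wilson intervals cover counting error only and say nothing of the spread between cultures. In Con cells 2 regions were 1 kb or wider, in KD cells 4333, and 3380 KD regions were wider than the widest Con region of 1000 bp. Sequencing depth is unknown because the lists hold no reads. For the number, width and score of regions, a difference in depth or in the yield of the ChIP cannot be told apart from a difference in the mark.

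**Figure D1:**
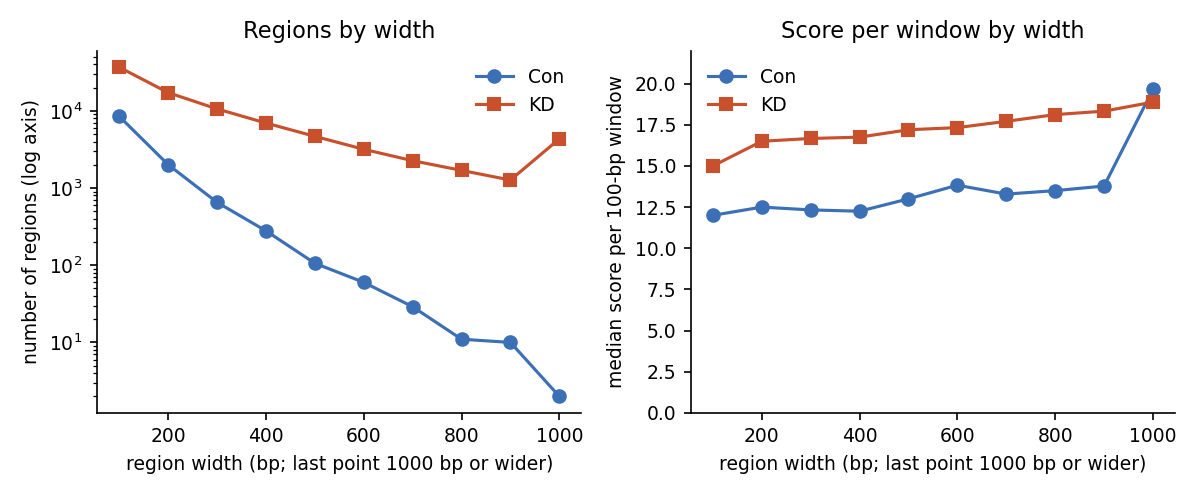
Number of H3K9me2 regions (left, log axis) and median score per 100-bp window (right) against region width in bp, for Con (circles) and KD (squares), 1 library each. The Con list falls from 8486 regions of 100 bp to 2 of 1000 bp or wider, whereas the KD list falls from 36712 to 4333, and the median score per window is higher in KD at every width below 1000 bp.

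The score grew with the width of a region, with a Spearman rho of 0.765 over the 11645 Con regions and 0.937 over the 88855 KD regions, a description of regions that share a library. Divided by the number of windows, the median score was 12 in Con and 16 in KD. At a width of 100 bp the median was 12 in Con against 15 in KD, and at 500 bp it was 13 against 17.2 per window. Scores of 6 or less were listed on the X and Y chromosomes alone, for 45 regions on X and 96 on Y in Con and for 89 regions on Y in KD.

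KD regions lay close together. The median gap between neighbouring regions of the same list was 67.8 kb in Con (67800 bp) and 2300 bp in KD, and in neither list was a gap shorter than 300 bp. When regions less than 3 kb apart were joined, KD regions formed 39981 stretches, of which 3838 held 5 or more regions and together 39.2% of the list. In Con, 6 of 10564 stretches held 5 or more regions, with 0.301% of the list. The widest stretch in Con measured 12.5 kb and the widest in KD 115.5 kb.

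The 5 widest KD stretches lay in DNA of 57.03 to 62.05% GC. The widest, on chromosome 20 from 60975701 to 61091200, joined 86 regions over CABLES2, RBBP8NL and GATA5, the last a transcription factor of gut and heart development. A stretch of 109.4 kb on chromosome 16 (85462401 to 85571800) joined 74 regions in GSE1, which encodes a subunit of a histone deacetylase and demethylase complex, and 50.5% of its bases were covered in KD. No Con region was listed in it. The others covered BAIAP2 and AATK on chromosome 17 (88.1 kb, 62 regions), RTN4R on chromosome 22 (87 kb, 55 regions) and MACROD1 and FLRT1 on chromosome 11 (86.8 kb, 60 regions). Across the 4 stretches with a Con region, Con regions numbered 1 to 3 and covered at most 500 bp of a stretch.

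The 5 widest KD regions measured 5600 to 7100 bp. The intron or exon given for a region is that at its centre, and a wide region can extend beyond it. The widest (chr19:45661601-45668700, score 1301) had its centre 910 bp from NKPD1, so the region reached into this gene. The next were those in CDH15 and FTCD described above, a region in intron 1 of RBFOX3, a neuronal splicing factor (chr17:77416601-77422500, score 1380), and one in intron 1 of CBFA2T3, a transcriptional co-repressor (chr16:89001501-89007100, score 1374). Among the 5 with the highest score was also a region centred in intron 3 of PVALEF (chr17:79152001-79156900, score 1453). Another was centred in coding exon 3 of FOXJ1, the transcription factor of ciliated cells (chr17:74130801-74136100, score 1400). A Con region overlapped FTCD and PVALEF among these, and none overlapped the others.

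In Con, 4 of the 5 widest regions had their centre in a coding exon, and these regions had 62.0 to 66.6% GC. They were centred in coding exon 1 of PTGDR, a prostaglandin receptor (1000 bp, score 132), coding exon 21 of ANKFN1 (900 bp, score 202), coding exon 2 of ZNF366 (900 bp, score 171) and coding exon 3 of DENND2B (900 bp, score 140). All 4 were also listed in KD, at widths of 1100, 700, 700 and 700 bp and with scores of 239, 192, 168 and 219 in this order. The other wide region and 3 more of the 5 highest-scoring Con regions were centred between genes on chromosomes 9, 6, 1 and 2. Each of them was listed in KD with a higher score. Their Con scores per window were 26.1 to 94.2, against a Con median of 12, so they are not typical of the list.

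Of the Con regions, 4119 (35.4%, Wilson 95% confidence interval 34.5 to 36.2%) overlapped a KD region by at least 1 bp, and 3974 of the KD regions (4.47%, 4.34 to 4.61%) overlapped a Con region. The overlap held 39.4% of the bases in Con regions and 2.41% of those in KD regions. The share of Con regions found again in KD was 18.7% in the 10% of the list with the lowest scores and 74.3% in the 10% with the highest. It was 28.2% for Con regions of 100 bp (27.2 to 29.1%) and 87.5% for those of 600 bp or wider (80.1 to 92.4%). Among the 4122 pairs of overlapping regions, KD was the wider in 79.3%, the Con region lay wholly inside the KD region in 88.0%, and the score per window was higher in KD in 92.8%.

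**Figure D2:**
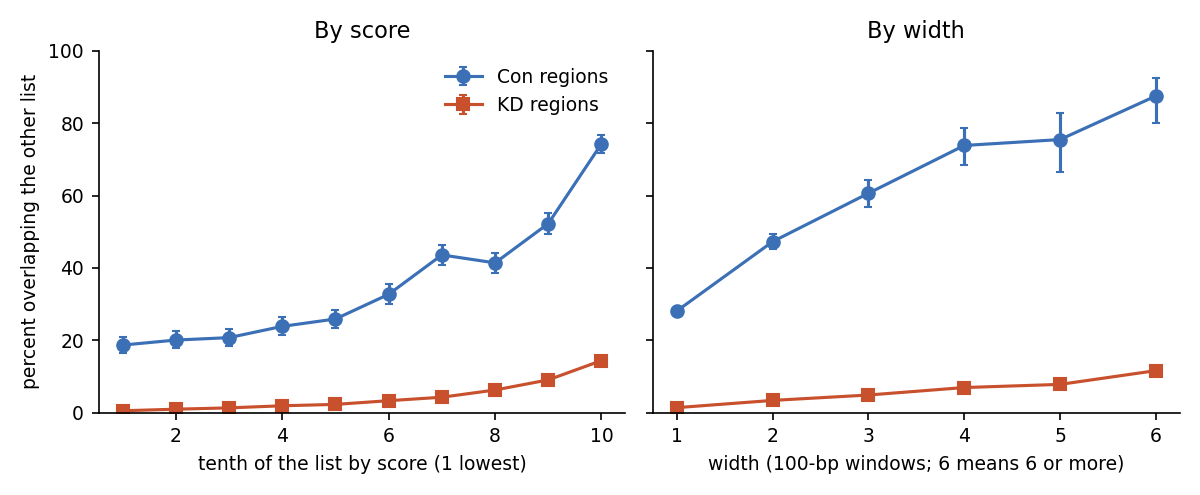
Percent of H3K9me2 regions that overlap a region of the other list by at least 1 bp, in steps of 10% of the own list by score (left) and by width in 100-bp windows (right), for Con (circles) and KD (squares), with Wilson 95% intervals. The share of Con regions found in KD is 18.7% in the lowest step and 74.3% in the highest, and for KD regions found in Con it is 0.574% and 14.4%.

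The remaining 7526 Con regions overlapped no KD region, although KD had the longer list. Their centres lay a median of 19.25 kb from the nearest KD centre, 29.03% within 5 kb and 17.8% beyond 100 kb. Their median score per window was 11, against 13 for the Con regions found again.

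The regions were also compared at equal list length, by keeping the 11645 KD regions with the highest scores, which is a score of 106 or more with 25 of the 156 regions at 106. These regions covered 11.3 Mb, 6.69 times the Con bases, and 14.7% of Con regions overlapped them. Because the score grew with width, the list was also shortened by score per window, a choice made after seeing the data. The KD regions then covered 5.03 Mb, 2.98 times the Con bases, and 12.02% of Con regions overlapped them.

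The lists differed in GC content. The 200 bp around the centre had a mean GC content of 52.3% in Con (SD 11.1 over regions) and 60.6% in KD (SD 6.33), against 40.9% over the assembled genome. Con regions that overlapped a KD region had a mean of 62.9% and those that did not 46.4%. Centres under 45% GC made up 30.7% of Con regions and 2.13% of KD regions. At equal list length the KD mean was 62.9% by score and 63.1% by score per window.

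The gain was then followed over all 100-bp windows of the genome by their GC content. Windows under 40% GC, which make up 48.7% of the genome, were covered 2350 times in Con and 2604 times in KD, a ratio of 1.11. Between 40 and 55% GC the ratio was 5.90, and at 55% or more it was 27.8, with 8597 windows in Con and 238731 in KD. In the windows of 65 to 75% GC, KD regions covered 25.1% of the genome's 433973 windows and Con regions 0.940%. Cover fell again in windows richer in GC. At 80% or more, KD regions covered 0.410% of 26824 windows, and Con regions covered 0 windows, so cover of this DNA was not detectable in Con at its unknown depth. Of the Con windows, 2.13% were also covered in KD under 45% GC and 79.3% at 60% or more. GC content moved with the difference between the lists, its effect on the yield of each library is unknown, and its part in the gain was not tested.

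**Figure D3:**
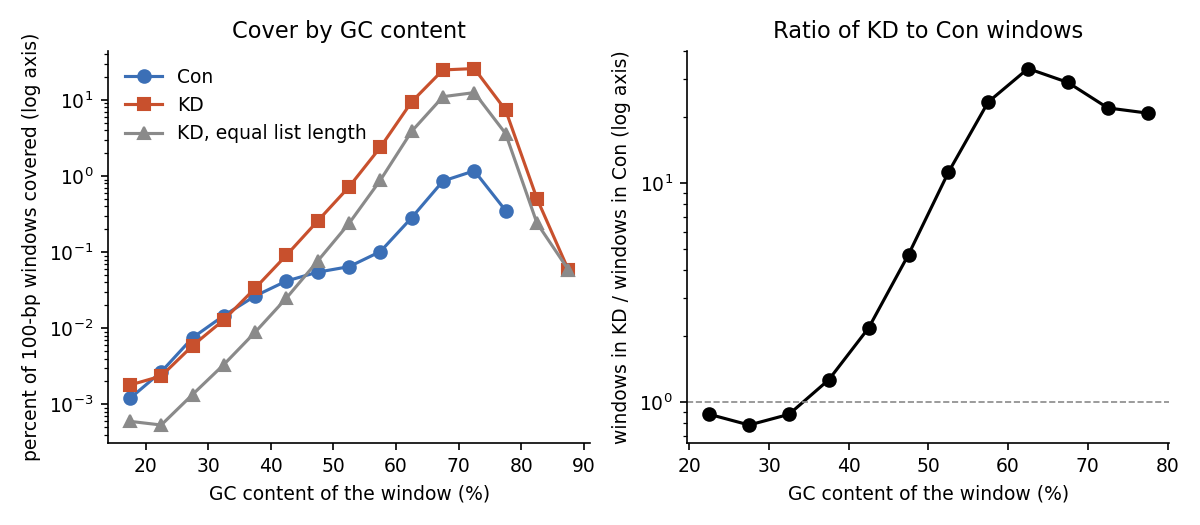
Left, percent of all 100-bp windows of the genome covered by H3K9me2 regions against the GC content of the window (log axis), for Con (circles), KD (squares) and KD at equal list length by score (triangles), with classes at 0 left out. Right, windows in KD divided by windows in Con (log axis, dashed line at 1), for classes with 20 or more Con windows. Below 35% GC the lists cover similar numbers of windows, and the ratio is 33.3 between 60 and 65% GC.

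CpG dinucleotides, the sites of DNA methylation, were also counted. The mean ratio of observed to expected CpG over regions was 0.308 in Con and 0.391 in KD. The ratio from the totals of the assembled genome was 0.236, which is not a mean over stretches of 200 bp. The mean was 0.512 in Con regions found again in KD and 0.197 in those that were not. Within windows of 70 to 75% GC, KD regions covered 36.5% of windows with 4 to 5 CpG and 11.6% of those with 12 or more, the density of strong CpG islands. The Con values in these classes were 1.28% and 0.860%. Between 60 and 65% GC the order was the other way in KD, with 10.2% of windows with 4 to 5 CpG and 16.1% of those with 12 or more.

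The KD regions were spread unevenly over the chromosomes. The ratio of KD to Con regions was 28.5 on chromosome 19, 15.6 on chromosome 22 and between 10.4 and 11.1 on chromosomes 7, 16, 17 and 20. It was lowest on chromosome 13 (3.80), X (3.23) and Y (1.19). KD regions were densest on chromosome 22, at 169.5 per assembled Mb, followed by chromosomes 19 (120.6), 17 (89.6) and 16 (75.2), which have the highest GC content of all chromosomes. The X chromosome had 4.85 per Mb. In Con the densities were 10.9 per Mb on chromosome 22, 8.51 on chromosome 15 and 1.502 on X. At equal list length, chromosome 19 still had 3.16 times and chromosome 17 2.31 times as many regions in KD, whereas the X chromosome had 15 regions in KD and 227 in Con. Scores ran lower on X, where KD regions of 1 window had a median of 10, against 15 on the autosomes. The part of this in the X count after a cut by score was not tested.

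**Figure D4:**
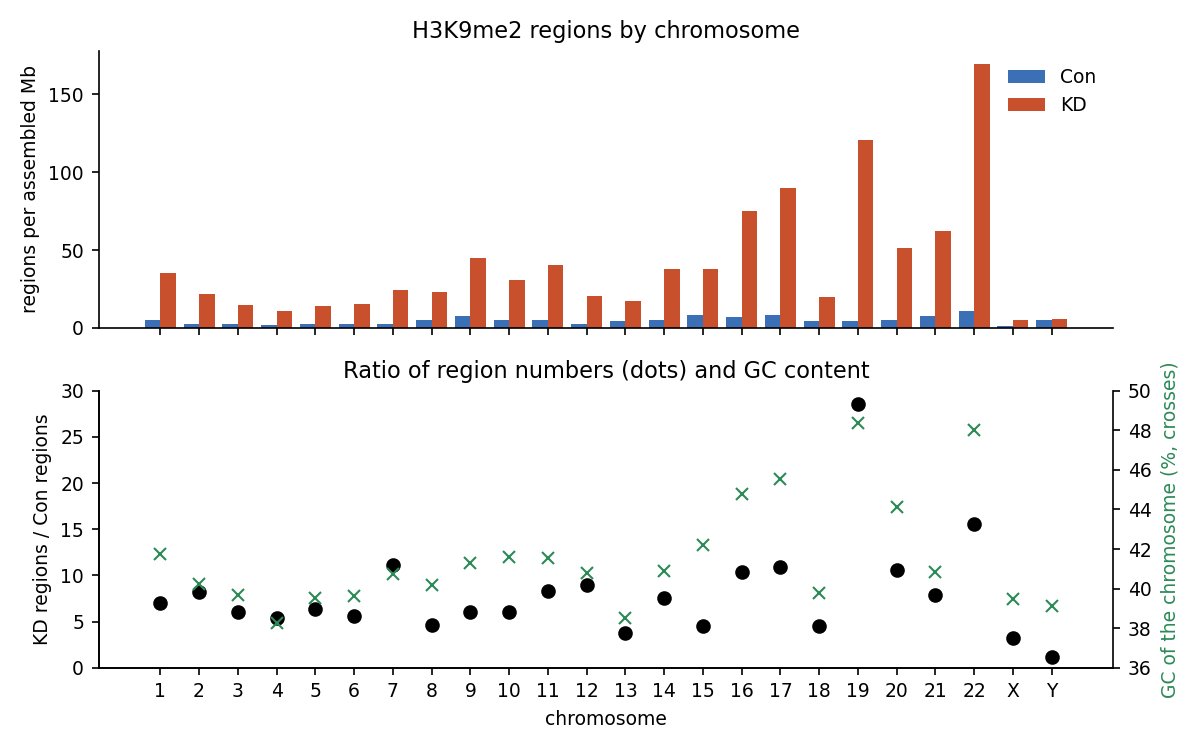
H3K9me2 regions per assembled Mb on each chromosome in Con and KD (bars, top), and the ratio of the region numbers (dots, left axis) with the GC content of the chromosome in percent (crosses, right axis, which does not start at 0) below. The ratio is 28.5 on chromosome 19 and 15.6 on chromosome 22, the chromosomes richest in GC, and 1.19 on Y.

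In bins of 1 Mb, 1968 of 2840 bins held more regions in KD and 356 held fewer. The 284 bins with most KD regions held 58.6% of the KD regions in bins, and the fullest 284 bins of Con 39.8% of the Con regions. Across bins, Spearman's rho between GC content and the number of regions was 0.435 in Con and 0.840 in KD, where neighbouring bins share a library and are not independent. The fullest KD bin, on chromosome 16 from 85000001 to 86000000, held 478 regions in KD and 23 in Con, and it contains the stretch over GSE1. The last 5 Mb at either end of the chromosomes held 13.2% of Con regions, 30.1% of KD regions and 7.11% of assembled bases, and at equal list length the KD share was 45.03%.

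Relative to genes, KD regions were closer to transcription start sites (TSSs). Of the centres, 11.01% in Con (10.4 to 11.6%) and 19.3% in KD (19.1 to 19.6%) lay within 5 kb of the TSS of the canonical transcript of a protein-coding gene, and the median distance was 53.2 kb in Con and 24.1 kb in KD. The ratio of KD to Con windows was lowest next to the TSS among the classes up to 10 kb, at 16.01 within 500 bp, and highest between 1 and 2 kb, at 40.5. It was 9.28 beyond 50 kb. In windows of 65 to 70% GC alone, the KD cover was 11.7% within 500 bp of the TSS and 33.5% between 1 and 2 kb, and the Con cover 0.765% and 0.774%. Over all windows the KD cover was 4.84% within 500 bp and 4.02% between 1 and 2 kb, so the order of these distances in KD depended on GC content.

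Along genes, coding exons had the highest cover in both lists. Features were those of the canonical transcripts of protein-coding genes. Windows outside these transcripts, 1 kb around their TSS and 5 kb past their end can still lie in other genes. KD regions covered 9.29% of the windows in coding exons more than 1 kb from the TSS, 2.62% in 3′ UTR exons, 1.31% in the first intron, 1.09% in other introns and 0.527% outside these features. The Con cover was 0.441%, 0.0630%, 0.0455%, 0.0486% and 0.0538% in this order. In windows of 65 to 70% GC, KD regions covered 41.9% of coding exon windows and 26.6% of windows in introns after the first, and Con regions 1.89% and 0.519%. The ratio of KD to Con was thus 22.2 in coding exons and 51.3 in these introns at this GC content. Outside these features the ratio was 18.96. Both the start and the end of gene bodies were covered more than the middle in both lists, over 16676 genes of at least 5 kb. The KD mean was 4.54% in the first 5% of the body, 3.08% from there to the midpoint and 3.77% in the last 5%. The Con means were 0.211%, 0.0833% and 0.110% in this order.

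Genes were assigned by a region within 5 kb of any annotated TSS. Among 20163 protein-coding genes, 2066 (10.2%) had a Con region, 9930 (49.2%) a KD region, 8103 (40.2%) a KD region only and 239 (1.19%) a Con region only. Of the genes with a Con region, 88.4% therefore had a KD region too. In the KD list of equal length, 3432 genes (17%) had a region. In KD the share was higher in each class of gene GC content than in the class below. Of genes under 40% GC, 7.40% had a Con region and 20.5% a KD region, and of genes of 60% or more 11.8% had a Con region and 87.8% a KD region. Long non-coding RNA genes had a region in 7.12% (Con) and 32.1% (KD), and processed pseudogenes in 5.03% and 14.9%.

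Over the whole gene body, from the outermost annotated ends, KD regions lay in 54.1% of the 17275 protein-coding genes of at least 5 kb and Con regions in 17.7%. More bases were covered in KD in 8963 genes and fewer in 590. The median gene had 0.108% of its body covered in KD, and 76 genes had 50% or more. The most covered body in Con reached 11.7%.

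The genes with the most covered bodies in KD were short and rich in GC. SLC34A3, a renal sodium and phosphate transporter (chromosome 9, 140125209 to 140131007), had 80.9% of its body covered by 3 KD regions and none by Con regions. It was followed by SLC22A31 with 75.2%, NUDT14, a nucleotide sugar hydrolase, with 74.2%, and LYNX1, a modulator of nicotinic receptors, with 74.1%. CD300C, a receptor of immune cells, had 73.4%, the homeobox gene TLX1 73.1%, and SOHLH1, a transcription factor of germ cells, 72.0%. HSPB7, a small heat shock protein of muscle, had 69.7%, the channel protein PANX2 68.2% and the calcium-binding protein CABP7 67.6%. In Con, 5 of these 10 genes had a region in the body, covering 100 to 300 bp. The rule chose these genes for their KD cover, so their difference from Con is a description.

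The 10 genes with the most covered bodies in Con had 8.32 to 11.7% of the body covered. They were chosen for their Con cover, so their difference from KD is a description as well. GPR142, a G protein-coupled receptor, had 600 bp in Con and 2000 bp in KD. ASGR1, a receptor of hepatocytes, had 700 and 1600 bp, and SYT15, a synaptotagmin, 1400 and 5100 bp. KD cover was lower than Con cover in 3 of the 10. These were AHSG, the liver glycoprotein fetuin (700 bp in Con and 300 bp in KD), KRT27, a hair follicle keratin (500 and 300 bp), and PHETA2 (449 and 400 bp). GC content was 47.8% in AHSG, 41.8% in KRT27 and 55.9% in PHETA2. PTGDR, with 43.9%, had 985 bp in Con and 1085 bp in KD.

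KDM3A and KDM3B had no H3K9me2 region in the gene body in either list, and JMJD1C had 1 Con region of 100 bp and none in KD. Among the 12 H3K9 demethylase genes, 1 had a Con region and 4 had a KD region within 5 kb of a TSS. That is 33.3% in KD, beside 49.2% of all protein-coding genes. Of genes between 40 and 45% GC, the class that holds the median of the list, 32.7% had a KD region. The most covered in KD was KDM4B, a demethylase of H3K9me3, with 110 regions over 51300 bp and no Con region. KDM4C, its relative, had 9 Con regions over 1300 bp and 12 KD regions over 1900 bp, and HR, which encodes a demethylase active in the hair follicle, had 4500 bp in KD and 0 bp in Con.

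Among 10 H3K9 methyltransferase genes, counted together with their cofactor WIZ, 2 (20%) had a Con region and 6 (60%) a KD region, beside 10.2% and 49.2% of all protein-coding genes. PRDM16 on chromosome 1 (2985732 to 3355185), a regulator of brown fat and blood stem cells, held 251 KD regions over 106200 bp, or 28.7% of its body, against 5 Con regions over 800 bp. EHMT1, which encodes GLP, had 5600 bp in KD and 0 bp in Con, over 251 kb. Among 9 readers of the mark, 1 (11.1%) had a Con region and 3 (33.3%) a KD region. The latter was below the 49.2% of all genes and near the 32.7% of genes between 40 and 45% GC, where the list median lies. The most covered reader gene was UHRF1, a protein that links H3K9 methylation with DNA methylation, at 2300 bp in KD.

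The Wnt pathway was followed by the role of its members. In this pathway secreted Wnt ligands bind Frizzled and LRP receptors, β-catenin then accumulates and joins TCF factors on target genes, and targets such as AXIN2 feed back to dampen the signal. HCT116 cells carry an activating mutation of β-catenin. Of 19 Wnt ligand genes, 5 (26.3%) had a Con region and 15 (78.9%) a KD region, beside 10.2% and 49.2% of all protein-coding genes. The median GC content of the ligand genes was 52.5%, and 74.99% of all genes between 50 and 55% GC had a KD region. WNT7B on chromosome 22 (46316246 to 46373042, 60.2% GC) had 300 bp covered in Con and 29355 bp in KD, which is 51.7% of its body in 34 regions. WNT3 had 600 and 11800 bp, WNT3A 700 and 6872 bp, and WNT11 0 and 4832 bp. All 5 ligand genes with a Con region, WNT2, WNT3, WNT3A, WNT5B and WNT10A, also had a KD region.

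Of 15 Frizzled, LRP and co-receptor genes, 2 (13.3%) had a Con region and 10 (66.7%) a KD region, beside 10.2% and 49.2% of all genes and 53.2% in KD of genes between 45 and 50% GC, the class that holds the median of the list. ROR2 had 44 KD regions over 12500 bp of its 387.1 kb, against 7 Con regions over 800 bp. LRP5 had 11300 bp in KD and 0 bp in Con. FZD7 and FZD1 each had 1 KD region, covering 1500 bp of the body, against 1 Con region of 200 bp in FZD7 and of 100 bp in FZD1.

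Secreted antagonists, which hold Wnt ligands or their receptors, had a Con region at 2 of 12 genes (16.7%) and a KD region at 10 (83.3%), beside 10.2% and 49.2% of all genes. NOTUM, an enzyme that inactivates Wnt ligands, had 2100 bp in KD, 22.5% of its body, and 0 bp in Con. DKK3 had 200 bp in Con and 1700 bp in KD. Of 13 negative feedback genes, 1 (7.69%) had a Con region and 10 (76.9%) a KD region, beside the same 10.2% and 49.2%. NKD1 and NKD2, inhibitors of the Dishevelled protein, had 8900 and 6000 bp in KD and 0 bp in Con, and ZNRF3, a ligase that removes Frizzled receptors, had 100 bp in Con and 2200 bp in KD.

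For the 31 Wnt target genes that the study chose, 3 (9.68%) had a Con region and 21 (67.7%) a KD region within 5 kb of a TSS, beside 10.2% and 49.2% of all protein-coding genes. In the KD list of equal length 5 (16.1%) had one, beside 17% of all. At this length the other Wnt lists had 36.8% (ligands), 33.3% (receptors), 41.7% (secreted antagonists) and 30.8% (negative feedback). The median gene of the target list had 0.234% of its body covered in KD, against 0.0518% for all protein-coding genes. The median GC content of the target genes was 47.4% against 45.2%. FGF18, a fibroblast growth factor, had the most covered bases in KD with 3600 bp in 13 regions, followed by AXIN2 with 2800 bp in 5 regions and, with 2300 bp each, the transcription factor TCF7 in 9 regions and TIAM1, an activator of the GTPase RAC, in 12. In Con 100 bp of TIAM1 and no base of the other 3 gene bodies were covered, although TCF7 had a Con region within 5 kb of a TSS. JUN had 200 bp in Con and 500 bp in KD.

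The core of the TCF binding site, CTTTGA or its reverse complement TCAAAG, was searched for on both strands in the 200 bp around each centre. It was present in 11% of Con regions, 6.88% of KD regions and 14.04% of all 200-bp windows of the genome. The shares were compared within classes of GC content, in the order Con, KD and genome. They were 17.3%, 17.2% and 17.0% at 30 to 40% GC and 14.9%, 11.97% and 13.7% at 40 to 50% GC. They were 10.4%, 9.12% and 8.37% at 50 to 60% GC and 5.08%, 5.42% and 5.42% at 60 to 70% GC. The lists were not matched in GC within a class. Con covered 1971 windows of 100 bp at 40 to 45% GC and 2098 at 45 to 50%, and KD covered 4302 and 9899. The part of this in the shares was not tested. A match of these letters is not a binding site.

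Among gene families, HOX genes, which pattern the body axis, stood at the top. They had a KD region at 38 of 39 genes (97.4%) and a Con region at 9 (23.1%), beside 49.2% and 10.2% of all genes. In the KD list of equal length 64.1% of HOX genes had a region, beside 17% of all genes. HOX genes lie in clusters and some overlap, such as HOXD10 and HOXD11, so 1 region can count for several genes. The median GC content of HOX genes was 54.2%, and 74.99% of all protein-coding genes between 50 and 55% GC had a KD region. HOXB3 had 500 bp covered in Con and 7200 bp in KD, and HOXB1 700 and 873 bp. Voltage-gated calcium channel genes had a KD region at 25 of 26 members (96.2%) and a Con region at 9 (34.6%), beside 49.2% and 10.2% of all genes. Their median GC content of 50.3% falls in the same class of 50 to 55%. CACNA1H had 33300 bp in KD, 48.5% of its body, and 0 bp in Con. Potassium channel genes had a KD region at 76 of 94 members (80.9%) and a Con region at 24 (25.5%), beside 49.2% and 10.2% of all genes and 53.2% in KD of genes between 45 and 50% GC, where the median of the list lies. KCNQ1, an imprinted gene of heart and epithelia, had 172 KD regions over 77800 bp against 8 Con regions over 1100 bp, and KCNT1 44600 against 600 bp. In contrast, KCNQ3, with 43.6% GC, had 8 Con regions over 1300 bp and 5 KD regions over 1500 bp.

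**Figure D5:**
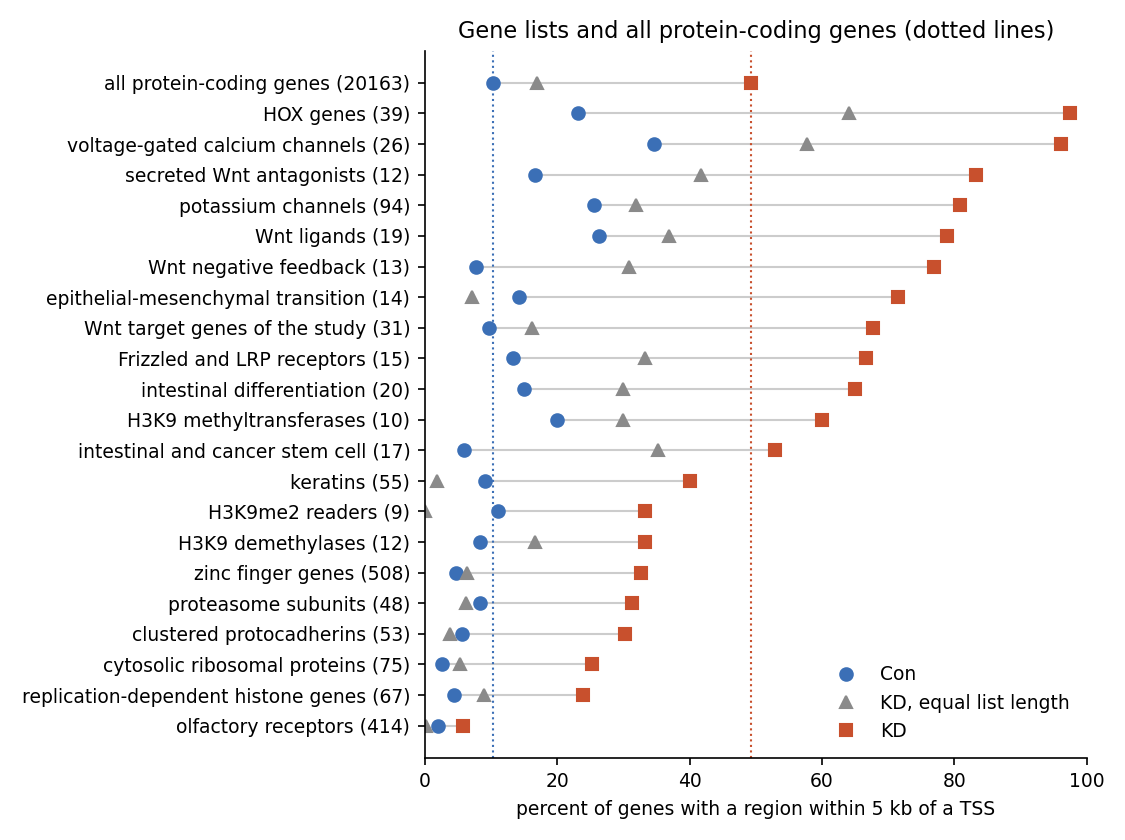
Percent of genes in each list with an H3K9me2 region within 5 kb of an annotated TSS in Con (circles), in KD (squares) and in KD at equal list length by score (triangles), with the number of genes in brackets and dotted lines at the values for all protein-coding genes (10.2% in Con, 49.2% in KD). HOX genes have 97.4% in KD and olfactory receptors 5.80%.

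Other families stood below the 49.2% of all protein-coding genes in KD. Olfactory receptors, which are silent outside the nose, had a KD region at 24 of 414 genes (5.80%) and a Con region at 8, at a median GC content of 41.2%. The list of replication-dependent histone genes, which also holds the linker histone genes H1-7 and H1-8, had a KD region at 16 of 67 (23.9%). Its median GC content was 54.2%, in a class where 74.99% of all protein-coding genes had a KD region. Cytosolic ribosomal protein genes had a KD region at 19 of 75 (25.3%), at a median GC content of 47.3%. Clustered protocadherins, neuronal adhesion genes, had one at 16 of 53 (30.2%), proteasome genes at 15 of 48 (31.2%), zinc finger genes at 166 of 508 (32.7%) and keratins at 22 of 55 (40%). Of all protein-coding genes between 40 and 45% GC, 32.7% had a KD region. The medians of the zinc finger genes (43.2%) and proteasome genes (44.4%) lie in this class, and their shares were near it. The medians of the protocadherins (45.4%) and ribosomal protein genes lie between 45 and 50%, where the share was 53.2%. That of the keratins (50.9%) lies between 50 and 55%, where it was 74.99%. ZNF469 was the most covered zinc finger gene in KD, with 33300 bp against 500 bp in Con, and 57.6% of its body.

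Of 20 genes of intestinal differentiation, 3 (15%) had a Con region and 13 (65%) a KD region, beside 10.2% and 49.2% of all protein-coding genes. A KD region only was found at 11 and a Con region only at 1. In the KD list of equal length 6 of the 20 (30%) had a region, beside 17% of all genes. MUC2, the main mucin of goblet cells, had 200 bp in Con and 13642 bp in KD, 46.2% of its body. The gene with a Con region only was that for carbonic anhydrase CA1, with 5 Con regions over 500 bp and none in KD, at a GC content of 37.2%. Of 17 genes of intestinal and cancer stem cells, 1 (5.88%) had a Con region and 9 (52.9%) a KD region, the latter near the 49.2% of all genes. In the KD list of equal length 6 of the 17 (35.3%) had a region, above the 17% of all genes. The most covered were EPHB2, a receptor of crypt cells, at 14800 bp and TERT, the catalytic subunit of telomerase, at 8200 bp in KD and both at 0 bp in Con. Of 14 genes of epithelial-mesenchymal transition, 2 (14.3%) had a Con region and 10 (71.4%) a KD region, beside 10.2% and 49.2% of all genes. In the KD list of equal length 1 (7.14%) had a region, beside 17% of all genes. The lists differ in gene length, in the number of annotated TSSs and in GC content, and the part of these in their shares was not tested. Neighbouring genes of a list can share a region within 5 kb, so its members are not separate observations.

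Overlap with the regions of KDM3B itself was also counted. In Con, 19 of 11645 H3K9me2 regions (0.163%) overlapped a KDM3B region of the same cells. In KD, 97 of 88855 (0.109%) overlapped a KDM3B region of KD cells and 94 (0.106%) overlapped a site listed for KDM3B in Con. Within 1 kb the shares were 0.721%, 1.47% and 2.75% in this order. The share that regions of these widths would reach by position alone was not tested.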

How the data were processed

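The authors mapped reads to hg19 with Bowtie, kept unique positions, counted 1 read per position and compared 100-bp windows of ChIP with input by a Poisson test. The deposited lists give the position and a score of each region. No library size is given, so the precision set by depth is unknown. Input libraries were not analysed here. The lists lie on hg19, and sequence came from its GRCh37 assembly and genes from GENCODE release 44 mapped to it. Regions, 100-bp windows and 200 bp around centres were counted in Python 3.11.15 (scipy 1.17.1, pandas 2.3.3, numpy 2.4.6). The measures were checked on simulated lists. No test between Con and KD was made. Wilson intervals cover counting error. Alternatives were equal list length by score or by score per window, the top 50% of either list by score, regions of at least 2 windows, regions under 1 kb apart joined, other overlaps, 2 kb of a TSS and canonical TSSs.

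The members and the 21 gene lists were chosen with earlier results of these data known. Genes were named if they were among the 10 of at least 5 kb with the most covered bodies in either list, held or lay nearest to the 5 widest or highest-scoring regions, lay in the 5 widest stretches, belonged to the KDM3 family, or were among the 4 members of a list with most covered bases in KD or up to 8 with a Con region. Bodies ran between the outermost annotated ends. The sequence of 1 further region is not reported here.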

Additional observations from a re-analysis of the deposited data

How the results depend on the processing

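KD had more covered bases, a higher mean GC content and higher shares of centres and genes near a TSS than Con under each alternative tried. The share of regions found in the other list was lower in KD under each. With the longer KD list this follows mostly from list length, as 4119 Con and 3974 KD regions are divided by 11645 and 88855. At equal length the shares were close. The sizes moved. With KD cut to the number of Con regions by score, the ratio of region numbers is 1 by construction, the ratio of covered bases was 6.69, the shared percentages were 14.7 (Con) and 13.5 (KD), and KD had 61.1% of centres and 17.0% of genes near a TSS and a mean GC of 62.9%. Cut by score per window, chosen after seeing the data, the values were 1, 2.98, 12.02, 11.4, 58.1%, 17.4% and 63.1%. With the top 50% of each list, shared percentages were 41.7 and 5.30, centres near a TSS 41.1 and 57.4%, mean GC 54.9 and 62.1%, and genes 6.50 and 37.0% (Con, then KD, here and below). With regions of at least 2 windows, the ratios were 16.5 and 28.6, shared percentages 49.4 and 2.93, centres 42.7 and 56.8%, GC 55.7 and 61.7%, and genes 4.05 and 39.6%. With regions joined, 6.29% of KD regions were shared, 52.1% of KD centres lay near a TSS, and GC was 52.0 and 59.4%. Shared percentages were 34.5 and 1.99 with 50% of the region overlapping, 44.8 and 7.25 within 1 kb, and 14.3 and 1.88 with 50% of both. Within 2 kb of a TSS, centres were 22.8 and 34.7% and genes 6.86 and 42.7%. With canonical TSSs they were 11.01 and 19.3%, and 6.15 and 41.0%. Over all covered bases GC was 54.1 and 62.0%.

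No paired analysis was possible because each side held 1 library. With no replicate and no read numbers, a region absent from a list was not detectable at an unknown depth, and differences in antibody yield, depth and GC recovery between the libraries cannot be told apart from differences in the mark.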
